A study of Mus with 8 samples.

Results

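Among Lin-Sca1+Kit+ (LSK) cells of 14-day-old mice, the cells with RNA of both Procr and Mecom were described against the other LSK cells of the same library and by genotype. They were chosen by their counts: at least 7500 gene UMI (unique molecular identifiers, that is, single counted RNA molecules) in a barcode, at most 10% of them mitochondrial, and at least 1 UMI each of Procr and Mecom. This gave 3048 Procr+Mecom+ cells of 9002 LSK cells at P14. Of these, 1439 of 4615 came from the Ifnar+/- library and 1609 of 4387 from the Ifnar-/- library. The whole series held 35549 cells that passed the limits on UMI and mitochondrial share, in 8 libraries, 1 for each combination of age (newborn, P0, or P14), sorted fraction (Lin-Kit+, LK, or Lin-Sca1+Kit+) and genotype (Ifnar+/- or Ifnar-/-). CITE-seq, which reads surface proteins through antibodies that carry a DNA barcode, gave counts of RNA and of 10 antibody tags for each cell. All groups carry at least 1 mutant Ifnar allele, so no wild-type mice enter any comparison. The labels give neither the allele, the strain, the organ nor the number of mice behind a library.

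Blood stem cells renew themselves and feed every blood lineage, and in the mouse they are a small part of the LSK fraction. Procr encodes the endothelial protein C receptor, CD201, a surface protein widely used to enrich for these cells. Mecom encodes the transcription factor EVI1, which long-term stem cells need to persist. Hlf is a transcription factor of stem cells, Pdzk1ip1 encodes a small membrane protein known from dormant stem cells, and Ifitm1 encodes an interferon-induced membrane protein that stem cells carry also at rest. Stem cells respond to type I interferon, which signals through the receptor that Ifnar1 and Ifnar2 encode, and a surge of it can drive them out of rest.

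By Gene Expression UMI, the Procr+Mecom+ cells were slightly shallower than the others. Their median was 22516 UMI in Ifnar+/- and 23794 in Ifnar-/-, against 26580 and 26815.5 in the other cells, and their UMI summed to 39248592 and 44222751. The median mitochondrial share was 3.87% and 3.83%, against 3.71% in the other cells of each library. The P14 LSK libraries had 4 cell barcodes in common, and 0 of them belonged to Procr+Mecom+ cells. Each library held cells of both sexes, in unequal shares: male cells made up 62.7% (59.9 to 65.4) of the Procr+Mecom+ cells that could be assigned a sex in Ifnar+/- and 38.4% (35.8 to 41.0) in Ifnar-/-. Each group was 1 library and no test between groups was made, so the differences have no replicate check. All intervals are exact 95% intervals that cover counting error only, and where a share is 0 its limit is 3 counts of the total.

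Most of these cells met the rule for Procr with few UMI. Procr (ENSMUSG00000027611, GRCm38 chr2:155751125-155755478) had exactly 1 UMI in 729 Ifnar+/- and 810 Ifnar-/- cells, and 4 or more in 137 and 166. Mecom (ENSMUSG00000027684, chr3:29951296-30509759) had exactly 1 UMI in 244 and 284 cells and 4 or more in 655 and 797, with up to 38 and 28 in a cell. The median cell thus had 1 UMI of Procr and 3 of Mecom in both libraries. At 1 UMI a cell can miss the rule by chance, so the other cells may also hold cells that express both genes, and 1 UMI from free RNA can let a cell in. Just inside the rule lay 163 Ifnar+/- and 173 Ifnar-/- cells with 1 UMI of each gene. Just outside it lay 195 and 196 cells with Procr but no Mecom and 1796 and 1771 with Mecom but no Procr, while 1185 and 811 cells had neither.

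The 3 markers that the rule did not read, Hlf, Pdzk1ip1 and Ifitm1, were all at a higher level in Procr+Mecom+ cells. Levels are given as CPM, the UMI of a gene summed over cells and scaled to a fixed total of gene UMI. Hlf (ENSMUSG00000003949, chr11:90336535-90390917) was at 606 CPM in Ifnar+/- and 564 in Ifnar-/- Procr+Mecom+ cells, against 318 and 320 in the other cells. Pdzk1ip1 (ENSMUSG00000028716, chr4:115088708-115093894) was at 48.6 and 50.3 CPM against 17.9 and 18.8. Ifitm1 (ENSMUSG00000025491, chr7:140967429-140969827) was at 813 and 882 CPM against 338 and 384. These markers thus go with the label of stem-like cells, but they do not test it, since the cells were chosen on RNA of the same libraries. None of the markers is absent from the other cells. After each cell was thinned to 7500 UMI, Hlf was read in 94.9% and 94.7% of Procr+Mecom+ cells and in 73.6% and 77.1% of the others. Pdzk1ip1 was read in 32.5% and 32.1% against 14.3% and 14.2%, and Ifitm1 in 94.9% and 96.1% against 73.0% and 78.9%.

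Background was read in neutrophil-committed cells, which should lack these genes: P14 LK cells with at least 10 UMI of Elane, the neutrophil elastase gene. In 402 Ifnar+/- and 437 Ifnar-/- such cells, with median depths of 49180 and 43231 UMI, the thinned share with a UMI was 0.746% and 0% for Procr, 0.249% and 0.686% for Mecom, 0.249% and 0.458% for Pdzk1ip1, 8.96% and 5.49% for Hlf and 24.1% and 17.4% for Ifitm1. A count of 0 among 437 cells allows a share of up to 0.686% at 3 counts. These shares lay below those of Procr+Mecom+ cells, but the LK libraries held less free RNA of these genes. Barcodes with 100 UMI or fewer, which hold free RNA, carried Ifitm1 at 155 and 157 CPM and Procr at 5.44 and 3.36 CPM in the LK libraries. In the LSK libraries they carried Ifitm1 at 416 and 525 CPM, Procr at 18.7 and 19.5 CPM, Mecom at 49.3 and 51.2 CPM and Hlf at 227 and 226 CPM. The P14 LSK libraries themselves held only 13 and 12 cells with at least 10 UMI of Elane. In these, after thinning, Procr was read in 0 cells, and Mecom in 15.4% (1.92 to 45.4) and 8.33% (0.211 to 38.5). Ifitm1 was read in 30.8% (9.09 to 61.4) and 58.3% (27.7 to 84.8), and Hlf in 15.4% (1.92 to 45.4) and 16.7% (2.09 to 48.4), which lie below the shares in Procr+Mecom+ cells. Pdzk1ip1 was read in 7.69% (0.195 to 36.0) of the 13 Ifnar+/- cells, an interval that holds the 32.5% of Procr+Mecom+ cells, and in 0 of the 12 Ifnar-/- cells, which allows up to 25%. So few cells cannot set the background of Pdzk1ip1 within the LSK libraries. Without thinning, Procr was at 3.16 and 4.55 CPM in these LSK cells and at 0.769 and 0.548 CPM in the LK cells with Elane. The rule was read without thinning, so the thinned shares do not give its background at 1 UMI.

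**Figure D1:**
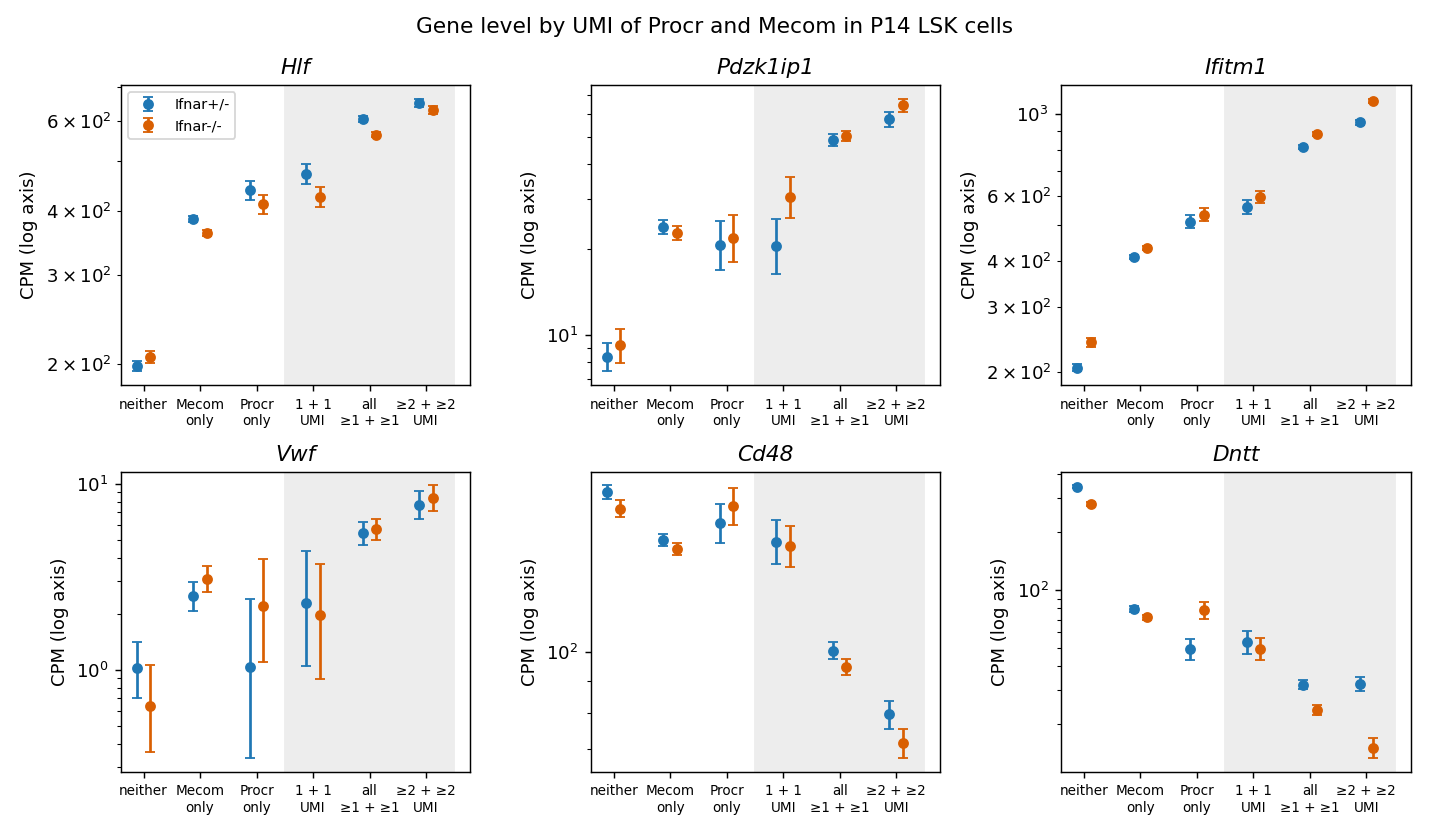
Level of 6 genes in CPM (log axis) in P14 LSK cells split by their UMI of Procr and Mecom, for Ifnar+/- (blue) and Ifnar-/- (orange). Points are sums over the cells of 1 library, bars are exact Poisson 95% intervals, and grey marks the cells that meet the rule. Hlf climbs from 198 and 207 CPM in cells with neither gene to 652 and 631 CPM in cells with at least 2 UMI of both. Dntt is highest in cells with neither gene and does not fall at each step.

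Splitting the cells by their UMI of both genes gave a graded picture for Hlf, not a step at the rule. Hlf was at 198 and 207 CPM in cells with neither gene, 385 and 362 with Mecom only, 439 and 412 with Procr only, 472 and 426 with 1 UMI of each, and 652 and 631 with at least 2 UMI of both. The cells just inside the rule therefore sat close to those just outside it. Dntt, which encodes the DNA polymerase TdT of lymphoid precursors, was highest with neither gene, at 343 and 279 CPM. It was at 79.4 and 71.8 with Mecom only and 49.0 and 78.2 with Procr only. With 1 UMI of each it was at 53.6 and 49.1, and with at least 2 UMI of both at 32.4 and 15.0. Vwf, which encodes von Willebrand factor and marks platelet-biased stem cells, was at 1.01 and 0.640 CPM with neither gene and at 5.40 and 5.68 CPM in all Procr+Mecom+ cells. Cells with at least 2 UMI of both numbered 629 and 688.

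The surface tags gave a readout that the rule did not use, although CD201 is the protein of Procr. The CD201 tag had a median of 48 counts per Procr+Mecom+ cell (quartiles 19 to 102) in Ifnar+/- and 67 (29 to 131) in Ifnar-/-. In the other cells it had 8 (4 to 18) and 13 (7 to 28), so the medians were 6-fold and 5.15-fold apart and the quartile ranges did not overlap. CD150, encoded by Slamf1 and carried by long-term stem cells, had medians of 18 and 20 counts against 8 and 10. CD48, carried by multipotent and committed progenitors, went the opposite way, with 1652 and 1839 counts against 4051.5 and 4478.5. The tag named SA_PE, whose target the labels do not give, had 1598 and 1262 counts against 705 and 649. These 4 of the 10 tags had medians at least 1.5-fold apart in both libraries.

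The other tags differed less between the 2 sets of cells. CD117, the protein of Kit that all sorted cells carry, had medians of 629 and 677 counts against 630.5 and 669.5. CD135, the protein of Flt3 and a marker of multipotent progenitors that leave the stem cell state, had 29 and 36 against 36 and 44.5, and CD34 had 203 and 210 against 251 and 254. CD16/32 was higher in Procr+Mecom+ cells, with 27 and 25 against 19 and 20. It had 33 and 29 in cells with at least 2 UMI of both genes. CD127 had 2 and 4 against 2 and 3. Total tags per cell had medians of 4846 and 4801 in Procr+Mecom+ cells and of 5997 and 6461.5 in the others. As a share of all tags, CD48 was 46.5% and 50.6% against 66.9% and 69.6%, which is less than 1.5-fold apart, and CD201, CD150 and SA_PE remained at least 1.5-fold apart.

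**Figure D2:**
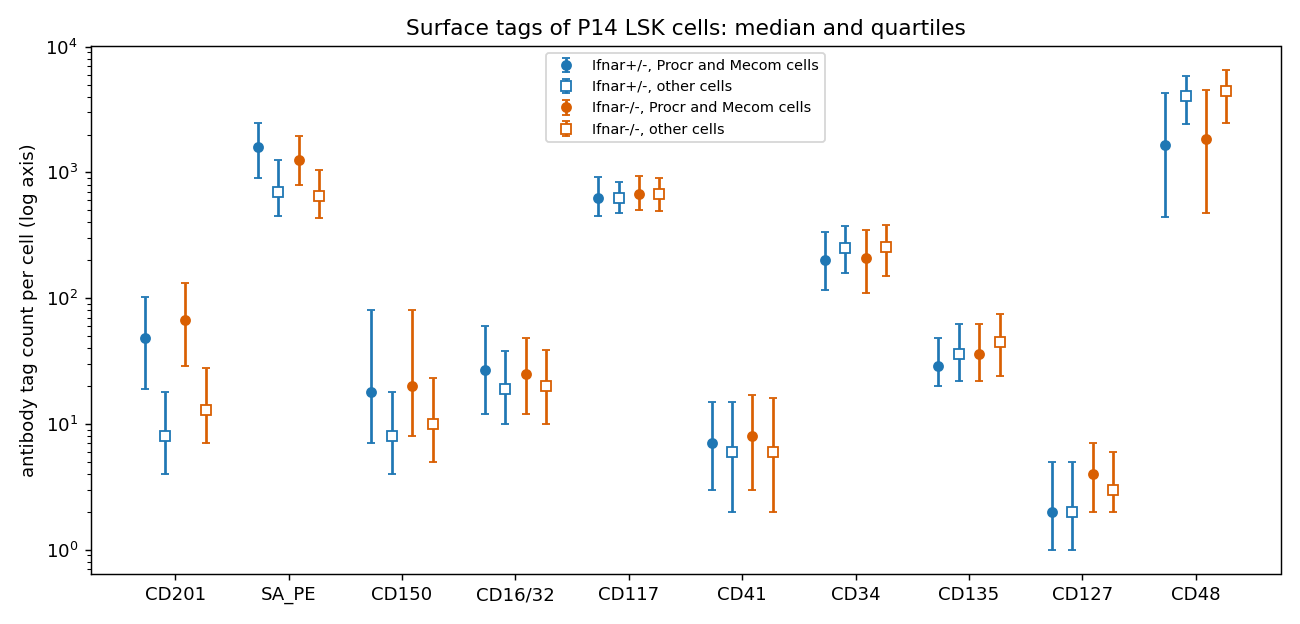
Antibody tag counts per cell (log axis) for the 10 tags in P14 LSK cells, with the median as a point and the quartiles as bars. Filled circles are Procr+Mecom+ cells and open squares the other cells, in Ifnar+/- (blue) and Ifnar-/- (orange). CD201 stands 6-fold and 5.15-fold higher in Procr+Mecom+ cells, and CD48 has 1652 and 1839 counts against 4051.5 and 4478.5.

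Within the Procr+Mecom+ cells, the CD201 tag followed the UMI of Procr. Cells with 1, 2, 3 and 4 or more Procr UMI had median CD201 counts of 32, 54, 71 and 114 in Ifnar+/- and 45, 75, 102 and 163.5 in Ifnar-/-. CD48 ran down the same steps, with 2104, 1606.5, 1036 and 786 counts in Ifnar+/- and 2687.5, 1415.5, 1268 and 860 in Ifnar-/-. CD150 ran up, from 13 to 40 and from 16 to 42 counts between the lowest and highest step. The median depth of the 4 steps stayed between 21885 and 24738 UMI. Cells with Procr but no Mecom had median CD201 counts of 15 and 21.5, and cells with Mecom but no Procr had 11 and 16.

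Stem cell genes apart from Procr and Mecom were at a higher level in Procr+Mecom+ cells in nearly every case. Of 12580 genes with at least 50 UMI on 1 side in both libraries, 255 (2.03%) were at least 2-fold higher in Procr+Mecom+ than in other cells in both libraries, and 96 (0.763%) were at least 2-fold lower. The 351 genes of both directions became 24 with 5 CPM added to each level and 605 with the rule applied after thinning. Taken one library at a time, 3.19% of genes in Ifnar+/- and 2.76% in Ifnar-/- passed on the higher side and 1.13% and 1.06% on the lower. Since the cells were chosen on RNA of the same libraries, these values describe them and test nothing. Of a list of 40 stem cell genes, 40 of 40 with enough UMI were higher in Ifnar+/- and 38 of 39 in Ifnar-/-, with 16 and 14 at least 2-fold higher. Most genes lay slightly on the higher side: 8927 of 12797 in Ifnar+/- and 8855 of 12673 in Ifnar-/-. The median log2 ratio of the list was 0.81 and 0.79, against 0.12 and 0.11 over all genes. Scaling by TMM factors shifted all ratios by -0.15 and -0.14, left the list at 0.66 and 0.65, and turned the counts to 166 higher and 126 lower. Median-of-ratios factors gave 172 higher and 124 lower.

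Several genes of the list have well-known roles in stem cell upkeep. Mllt3, a chromatin reader that maintains stem cells in culture, was at 111 CPM in Ifnar+/- and 109 CPM in Ifnar-/- Procr+Mecom+ cells, against 38.1 and 38.8 CPM in the other cells (log2 ratios 1.54 and 1.49). Hoxb5, a homeobox gene that marks long-term stem cells, was at 2.497 and 2.76 CPM against 0.710 and 0.632. Fgd5, an exchange factor whose locus is used to label stem cells, was at 17.2 and 20.2 CPM against 6.51 and 7.85. These 3 genes were at least 2-fold higher in each library. Esam, an adhesion protein of stem and endothelial cells, had log2 ratios of 1.55 and 1.37, and Tek, the receptor of angiopoietins, had 1.24 and 1.06. Angpt1, its ligand, was at 259 and 253 CPM against 200 and 203.

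The transcription factors that stem cells share with progenitors differed less. Meis1 had log2 ratios of 0.53 and 0.48, Erg 0.44 and 0.39, Gata2 0.34 and 0.33 and Hoxa9 0.30 and 0.21. Prdm16, which stem cells need to persist, stood above these at 1.03 and 0.85, and Nkx2-3 at 1.17 and 1.02. The RNA of Slamf1 hardly differed, at 6.50 and 5.97 CPM against 6.13 and 6.04, although the tag of its protein, CD150, was at least 2-fold higher by median. Slamf1 was the 1 list gene on the lower side in Ifnar-/-, with a log2 ratio of -0.02.

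Single regulators of rest and division differed in both directions, while the list of 20 quiescence genes as a whole lay close to all genes, with a median of 0.24 and 0.17. Cdkn1c, which encodes the cell cycle inhibitor p57 of resting stem cells, was at 26.4 and 30.3 CPM against 12.5 and 14.0, and after thinning it was read in 18.1% and 21.4% of cells against 9.23% and 9.36%. No background share was read for Cdkn1c. Socs2, a brake on cytokine signalling, had log2 ratios of 1.59 and 1.45, Gfi1, a repressor that restrains stem cell division, 0.99 and 0.90, and Txnip, a redox regulator of resting cells, 0.87 and 0.75. Cdk6, the kinase whose low level delays exit from rest, was lower, at 160 and 149 CPM against 255 and 239. Cdkn1a, which encodes the inhibitor p21, was lower too, at 5.02 and 5.72 CPM against 10.1 and 8.44. The inhibitors of division thus lay on both sides.

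The 2 Myc genes went in opposite directions. Myc was at 83.9 CPM in Ifnar+/- and 76.2 CPM in Ifnar-/- Procr+Mecom+ cells, against 120 and 113 CPM in the other cells. Mycn, its relative that also acts in stem cells, was at 92.1 and 87.3 CPM against 55.1 and 54.4. Over all genes, 3870 of 12797 in Ifnar+/- and 3818 of 12673 in Ifnar-/- were lower. Of 16 genes of growth and ribosome assembly, Mycn was the only one that was higher. The other 15 were lower in each library, and the list had a median of -0.25 and -0.22. Examples are Nme1, at 285 and 296 CPM against 362 and 364, and Dkc1, the pseudouridine synthase of ribosomal RNA, at 138 and 139 CPM against 172 and 168. None of the 15 reached 2-fold, and under TMM scaling, which lowers all ratios, they stay lower.

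Genes of the first lymphoid steps were lower. Of 20 lymphoid genes, 18 were lower in each library and 11 and 12 of them at least 2-fold, with a median of -1.51 and -1.71. Over all genes, 3870 of 12797 and 3818 of 12673 were lower and 1.13% and 1.06% at least 2-fold. Il7r, the receptor that lymphoid precursors need, was at 1.53 and 1.22 CPM against 13.7 and 9.50. Rag1 was at 0.815 and 0.543 CPM against 4.28 and 3.36, and Ebf1, which commits cells to the B lineage, at 1.91 and 0.362 CPM against 16.0 and 9.15. Ly6d, a marker of B-primed lymphoid progenitors, had 4 and 0 UMI in Procr+Mecom+ cells against 224 and 266 in the others, and in Ifnar-/- it was at least 48.6-fold lower by a floor of 3 counts in the summed cells. Flt3 was only slightly lower, at 157 and 147 CPM against 172 and 169. Mef2c and Lsp1 lay on the higher side, with log2 ratios between 0.10 and 0.12 that change sign under TMM scaling.

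Myeloid genes were also lower, in 17 of 18 genes in Ifnar+/- and 16 of 18 in Ifnar-/-, with a median of -1.14 and -0.96, where 3870 of 12797 and 3818 of 12673 of all genes were lower. Mpo, the myeloperoxidase of granules, was at 104 and 80.9 CPM against 234 and 203, and after thinning it was read in 21.3% and 18.3% of cells against 44.7% and 40.0%. Cebpa, the main driver of the granulocyte path, was at 9.20 and 8.59 CPM against 16.0 and 16.0, and Irf8, which steers cells to monocytes and dendritic cells, at 12.3 and 9.68 CPM against 27.0 and 18.7. Gstm1, a glutathione transferase on the list, was higher, at 74.9 and 77.4 CPM against 46.3 and 48.9. The erythroid list split: Car1 had 22 and 10 UMI against 1004 and 980, and Klf1 had log2 ratios of -1.67 and -1.39, while the globin gene Hbb-bt was at 634 and 625 CPM against 325 and 305.

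Megakaryocyte genes differed in both directions. Vwf had log2 ratios of 1.55 and 1.29, and Ppbp 1.42 and 1.40 at under 2 CPM. Itga2b, which encodes the CD41 integrin, was lower, at 5.94 and 4.70 CPM against 8.37 and 8.20, although the CD41 tag had medians of 7 and 8 counts against 6 and 6. Pf4, the platelet factor, was at 22.1 and 27.6 CPM against 19.2 and 25.6. The list's median was 0.19 and 0.11, near that of all genes, and TMM scaling turned it to 0.03 and -0.04.

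Outside the lists, the genes with the highest ratios in both libraries included 2 noncoding RNAs of the imprinted Dlk1-Meg3 locus. Meg3 was at 16.4 CPM in Ifnar+/- and 15.9 CPM in Ifnar-/- Procr+Mecom+ cells, against 1.30 and 1.92 CPM in the others, with log2 ratios of 3.65 and 3.04. It was read in 128 (8.90%) and 154 (9.57%) of the cells, so its level rests on a minority of them. After thinning it was read in 6.39% and 6.53%, against 0 Elane cells of the LK libraries. Free RNA held more Meg3 in LSK, at 5.91 and 7.87 CPM against 0.726 and 0.960 CPM in LK. The LK cells thus cannot set its background in LSK. Rian had log2 ratios of 2.83 and 3.31 and was read in 38 and 52 cells. The protein-coding genes with the highest ratios included Igf1, which encodes insulin-like growth factor, at 4.48 and 6.65 CPM against 0.787 and 1.12. Inhba, an activin subunit, had log2 ratios of 2.85 and 2.42, Ndnf 2.43 and 2.20, Clip3 2.37 and 2.29 and Foxa3, a forkhead factor, 2.46 and 2.32. Smtnl1, Prdm16os, Mmp16, Exph5 and Skint3 complete the 12 highest, all under 4 CPM. Prdm16os and Mecomos, antisense to Prdm16 and Mecom by name, could share reads with these genes, since strand handling is not given in the sources used here. Besides Ly6d, Car1, Ebf1 and Il7r, the 8 lowest genes were Csrp3, Ermap, Cmah and Stc1. H19, another imprinted noncoding RNA, was at 1.32 and 1.92 CPM against 0.339 and 0.409.

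Immediate early genes were moderately higher in Procr+Mecom+ cells. Their median log2 ratio was 0.34 and 0.53, with 16 of 17 and 17 of 18 genes higher, where 8927 of 12797 and 8855 of 12673 of all genes were higher. Egr1, an early growth response factor that restrains stem cell division, was at 53.3 and 52.2 CPM against 29.4 and 27.2, and Nr4a1 had log2 ratios of 0.76 and 0.94. NF-kB genes had a median of 0.32 and 0.39, but with 12 of 17 and 13 of 17 genes higher their count was close to that of all genes. The inhibitor Nfkbia was at 88.7 and 102 CPM against 64.8 and 74.9. Under TMM scaling the medians were 0.19 and 0.38 for immediate early genes and 0.17 and 0.25 for NF-kB genes. Genes of glycolysis had a median of 0.04 and -0.01, or -0.11 and -0.15 under TMM scaling.

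Interferon genes were also higher in Procr+Mecom+ cells than in the other cells, in both genotypes. The list held 68 genes, of which 64 and 58 had at least 20 UMI, and 57 and 49 of these were higher, where 8927 of 12797 and 8855 of 12673 of all genes were. The median was 0.36 and 0.39, or 0.20 and 0.25 under TMM scaling. At least 2-fold higher were 4 and 6 of them, against 3.19% and 2.76% of all genes. Iigp1, an interferon-induced GTPase, was at 18.2 CPM against 5.29 in Ifnar+/- and, at a far lower level, at 1.27 CPM against 0.223 in Ifnar-/-. Samd9l was at 46.7 and 29.6 CPM against 29.8 and 20.01, and Trim30a at 60.9 and 44.5 CPM against 39.9 and 30.2. Ifi27, Ly6e and Bst2 were on the lower side in both libraries.

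**Figure D3:**
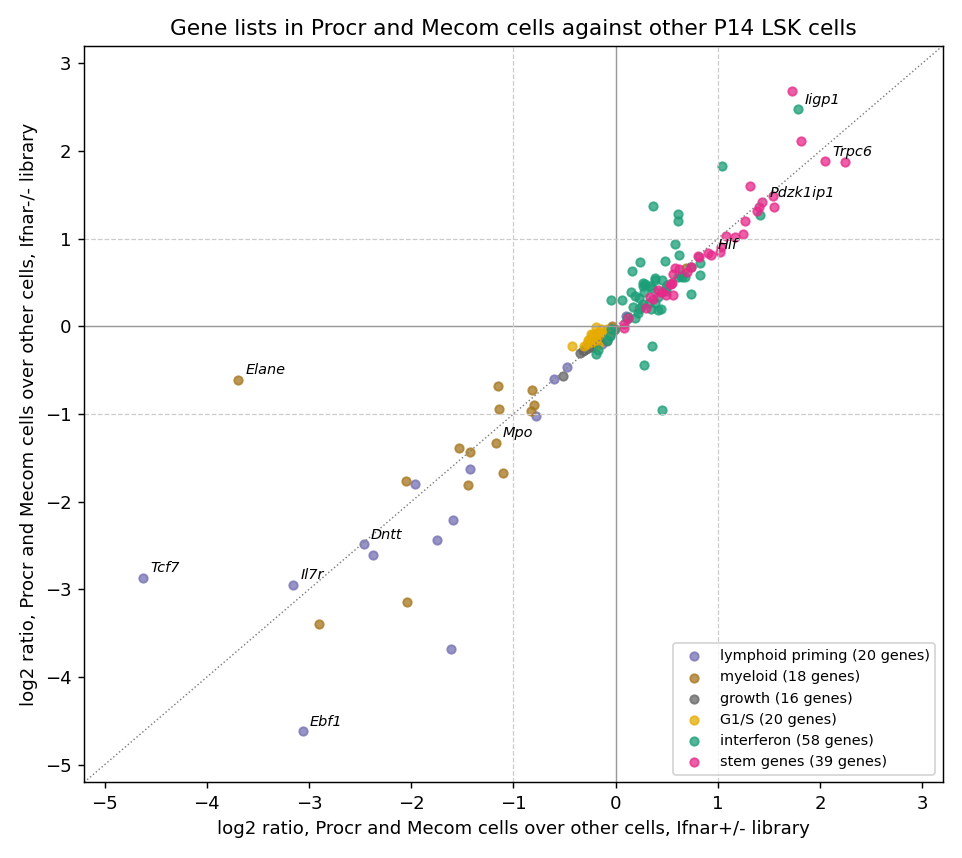
Log2 ratio of each gene of 6 lists between Procr+Mecom+ cells and the other LSK cells at P14, in Ifnar+/- (horizontal) and Ifnar-/- (vertical). Dashed lines mark 2-fold and the dotted line equal ratios. Stem genes (median 0.81 and 0.79) and interferon genes (0.36 and 0.39) lie up and to the right, and lymphoid (-1.51 and -1.71) and myeloid genes (-1.14 and -0.96) lie down and to the left.

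Fewer Procr+Mecom+ cells than other cells carried RNA of division. After thinning to 7500 UMI, 48.2% (45.6 to 50.8) of them in Ifnar+/- and 50.03% (47.6 to 52.5) in Ifnar-/- had at least 3 UMI of a list of 20 G2M genes, against 60.5% of the other cells in each library. Without thinning the shares were 68.7% and 72.1% against 81.0% and 81.7%. Mki67, a marker of dividing cells, was read in 37.6% and 39.9% of thinned cells against 48.5% and 49.0%. The summed level of the G2M genes had a median log2 ratio of -0.04 and -0.06, or -0.19 and -0.20 under TMM scaling, against 0.12 and 0.11 over all genes without it. On that scale 14 and 16 of the 20 G2M genes and 20 of 20 G1/S genes in each library were lower, where 3870 of 12797 and 3818 of 12673 of all genes were. None of these genes reached 2-fold. By Procr UMI of 1, 2, 3 and 4 or more, the G2M share in Ifnar-/- was 55.6%, 47.8%, 41.1% and 40.4%. In Ifnar+/- it was 50.1% (46.4 to 53.8), 47.6%, 48.7% and 39.4% (31.2 to 48.1). There it did not fall at each step, and the intervals of the lowest and highest step overlap. Cells with Procr but no Mecom had shares of 48.2% (41.0 to 55.5) and 54.1% (46.8 to 61.2), near those of Procr+Mecom+ cells. Cells with Mecom but no Procr had 61.5% and 61.4%, and cells with neither gene 61.2% and 60.2%. The measure also counts G2M UMI that reach a cell as free RNA.

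CD150 and CD48, which divide LSK cells into stem cells and multipotent progenitors in sorting schemes, split the Procr+Mecom+ cells further. Cells were divided at the median of all LSK cells of their library, which is 9 and 12 counts for CD150 and 3525 and 3653 for CD48. These limits were set after the data had been seen and are not sorting gates. CD150-high CD48-low cells made up 669 (46.5%) of the Ifnar+/- and 702 (43.6%) of the Ifnar-/- Procr+Mecom+ cells, against 18.9% and 16.6% of the others. CD150-low CD48-high cells made up 10.1% and 12.2%, against 36.4% and 37.3%. Cells low for both tags made up 22.6% and 24.9%, against 22.4% and 22.7% of the others, and cells high for both 20.8% and 19.2%, against 22.2% and 23.5%. The classes that differed most between Procr+Mecom+ and other cells were thus those in which the tags go opposite ways.

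G2M RNA moved with CD48 more than with CD150. It was counted in 38.1% and 39.5% of CD150-high CD48-low cells and in 34.5% and 38.9% of cells low for both. In CD48-high cells it was counted in 76.3% and 76.7% where CD150 was high and in 67.6% and 68.5% where it was low. Depth moved with it: the median was 17976 and 19789.5 UMI in CD150-high CD48-low cells and 40779.5 and 39337 UMI in cells high for both. Tag counts were not corrected for this depth, and its part in the split was not tested.

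**Figure D4:**
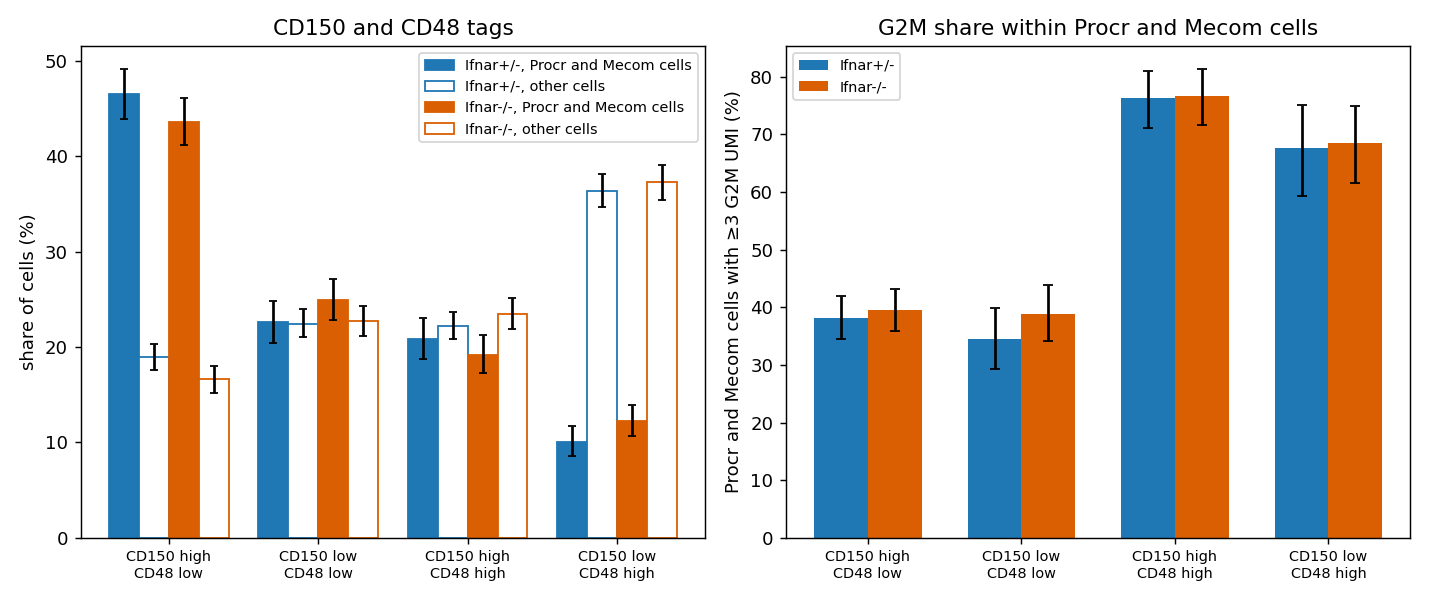
Left, share of P14 LSK cells (%) in 4 classes split at the library medians of the CD150 and CD48 tags, for Procr+Mecom+ cells (filled bars) and other cells (open bars) of Ifnar+/- (blue) and Ifnar-/- (orange). Right, share of the Procr+Mecom+ cells of each class with at least 3 G2M UMI after thinning; lines are exact binomial 95% intervals. The CD150-high CD48-low class holds 46.5% and 43.6% of Procr+Mecom+ cells, and G2M shares reach 76.3% and 76.7% where both tags are high.

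The classes also differed in their stem and lineage genes. CD150-high CD48-low cells had Pdzk1ip1 at 90.2 and 95.2 CPM, Vwf at 11.5 and 11.4 CPM and Cdkn1c at 43.4 and 50.1 CPM. Cells low for both tags had slightly more Hlf, at 762 and 721 CPM against 732 and 662. They had less Pdzk1ip1, at 30.9 and 38.7 CPM, and less Vwf, at 1.85 and 3.40 CPM, and more Flt3, at 219 and 203 CPM against 120 and 99.4. Mpo marked the CD48-high cells, with 192 and 158 CPM where CD150 was high and 205 and 150 CPM where it was low, against 15.7 and 15.2 CPM in CD150-high CD48-low cells. Procr and Mecom RNA alone thus gathered cells with little and with more myeloid RNA.

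The share of LSK cells that met the rule was 31.2% (29.8 to 32.5) in Ifnar+/- and 36.7% (35.2 to 38.1) in Ifnar-/- at P14. Among newborn LSK cells it was 35.2% of 5122 in Ifnar+/- and 68.4% of 3471 in Ifnar-/-. In the LK fraction at P14 it was 8.88% and 7.13%. The LSK gate itself uses Sca1, which Ly6a encodes, and at P14 Ly6a was at 74.4 CPM in Ifnar+/- and 46.9 CPM in Ifnar-/- Procr+Mecom+ cells and at 35.2 and 22.9 CPM in the others. The part of the gate in these shares was not tested. Applied after thinning, the rule took 11.7% (10.8 to 12.7) and 13.4% (12.4 to 14.4) of P14 LSK cells, with Ifnar-/- again above Ifnar+/-. Newborn LSK cells were deeper, with medians of 32316.5 and 36534 UMI against 25597 and 25647 at P14. After thinning the rule took 10.5% (9.70 to 11.4) and 24.2% (22.8 to 25.7) of them. In Ifnar+/- the newborn share was thus above that of P14 without thinning and below it with thinning. Within female cells the shares at P14 were 30.5% and 35.4%, and within male cells 29.0% and 34.7%. Both sexes lay below the 31.2% and 36.7% of all cells, because cells without an assigned sex met the rule more often. In Ifnar+/- 450 female and 756 male of 1439 Procr+Mecom+ cells were assigned, and 841 and 524 of 1609 in Ifnar-/-. Among the other cells, 1026 and 1848 of 3176 and 1538 and 986 of 2778 were assigned. What the cells without an assigned sex are was not tested.

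Between the genotypes, Procr+Mecom+ cells differed mainly in interferon and antigen presentation RNA, which was lower in Ifnar-/-. The Ifnar-/- level was at most 0.5 times that of Ifnar+/- for 52 of 12214 genes (0.426%) and at least 2 times for 7 (0.0573%). These 59 genes became 18 with 5 CPM added and 147 where 20 UMI sufficed. The interferon list held 23 of the 52, and 31 were on it or on the MHC class I list. The median log2 ratio of all genes was -0.003, and 6303 of the 12214 were lower. Sexes were unequal in the libraries, so the count was repeated within each: in female cells 30 of 11233 genes were at least 2-fold lower and 21 higher, and in male cells 53 of 11029 lower and 3 higher. The same count in the other cells gave 69 of 12840 genes (0.537%) below and 16 (0.125%) above. The targeted gene cannot be checked by these counts, since the allele is not described and 3' tags need not lie in the deleted part. Ifnar1 (ENSMUSG00000022967, chr16:91485032-91510523) was at 40.1 CPM in Ifnar+/- and 35.1 CPM in Ifnar-/- Procr+Mecom+ cells, and Ifnar2 at 99.1 and 97.7 CPM.

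The interferon list had a median log2 ratio of -0.66. It was lower in 62 of 63 genes and at least 2-fold lower in 27, against 6303 and 52 of 12214 over all genes. In the other cells 62 of 63 genes were lower, with a median of -0.61. Gene by gene, Procr+Mecom+ cells differed from the others by a median of -0.02, and 35 of the 63 genes were more negative in them, so the ratios lay close together. Which of the 2 medians is lower depended on the cells taken: with at least 2 UMI of Procr and of Mecom required they were -0.53 and -0.64, and within female cells -0.56 and -0.58. Both sets come from the same libraries. Slfn2, a regulator of lymphocyte rest, was the exception in Procr+Mecom+ cells, at 10.2 CPM in Ifnar+/- and 11.9 CPM in Ifnar-/-. With 5% of free RNA taken off, the median was -0.65. Within female cells the median was -0.56 and within male cells -0.62, with 56 and 58 of 59 genes lower.

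The 10 genes with the most negative ratios were Oas2, Ifi44, Gm4951, Ifit3, Usp18, H2-Q7, Oas3, Iigp1, Oasl1 and H2-Q6, of which 7 are on the interferon list and H2-Q7 and H2-Q6 on that of MHC class I. Ifi44 had 493 UMI in Ifnar+/- and 11 in Ifnar-/- Procr+Mecom+ cells, or 12.6 and 0.249 CPM, and it was read in 265 (18.4%) and 7 (0.435%) cells. Oas2, an oligoadenylate synthetase that senses viral RNA, had 102 UMI and 1 UMI, a log2 ratio of -6.27 with a counting interval from -12.16 to -4.33. Oas3 had 377 and 27 UMI, Oasl1 153 and 12, Usp18, the brake on the receptor, 161 and 9, and Ifit3 66 and 3. Iigp1 had 715 and 56 UMI, in 22.1% and 2.73% of cells. Gm4951, another GTPase-like gene, had 163 and 7. The free RNA carried the same difference, with Ifi44 at 6.45 and 0.157 CPM. The part of free RNA in cells with few UMI of these genes was tested only by the 5% removal.

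The list of 19 genes of interferon receptors and signalling had a median of -0.11. Of these, 16 were lower and 3 at least 2-fold lower, against 6303 and 52 of 12214 over all genes. The members of the list differed widely. Irf9, the DNA-binding part of the transcription factor complex of type I interferon, was at 42.3 and 16.3 CPM (log2 ratio -1.37). Irf7, which amplifies the response, was at 13.2 and 3.62 CPM (-1.86), and Stat2 at 13.6 and 11.4 CPM. The kinases Jak1 and Tyk2 differed little, with log2 ratios of 0.05 and -0.01, as did Ifngr1, the receptor of type II interferon, at 0.14.

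All 15 genes of MHC class I presentation were lower in Ifnar-/- Procr+Mecom+ cells, with a median of -1.01, and 8 were at least 2-fold lower. Over all genes, 6303 of 12214 were lower and 52 at least 2-fold lower. In the other cells all 15 were lower too, with a median of -0.91. Within female Procr+Mecom+ cells the median was -0.98 and within male ones -0.92, with 15 of 15 lower in each. B2m, the light chain of MHC class I, was at 896 and 440 CPM, and the heavy chain genes H2-K1 at 677 and 281 CPM and H2-D1 at 536 and 248 CPM. Nlrc5, the activator of these genes, was at 6.70 and 1.45 CPM, and the peptide transporter gene Tap1 at 59.6 and 29.5 CPM. H2-Q7, with 628 and 39 UMI, and H2-Q6, with 214 and 18, are near-identical copies whose reads can be split either way, so their single values are uncertain. Psmb10 and Tap2 differed little, with log2 ratios of -0.13 and -0.14.

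**Figure D5:**
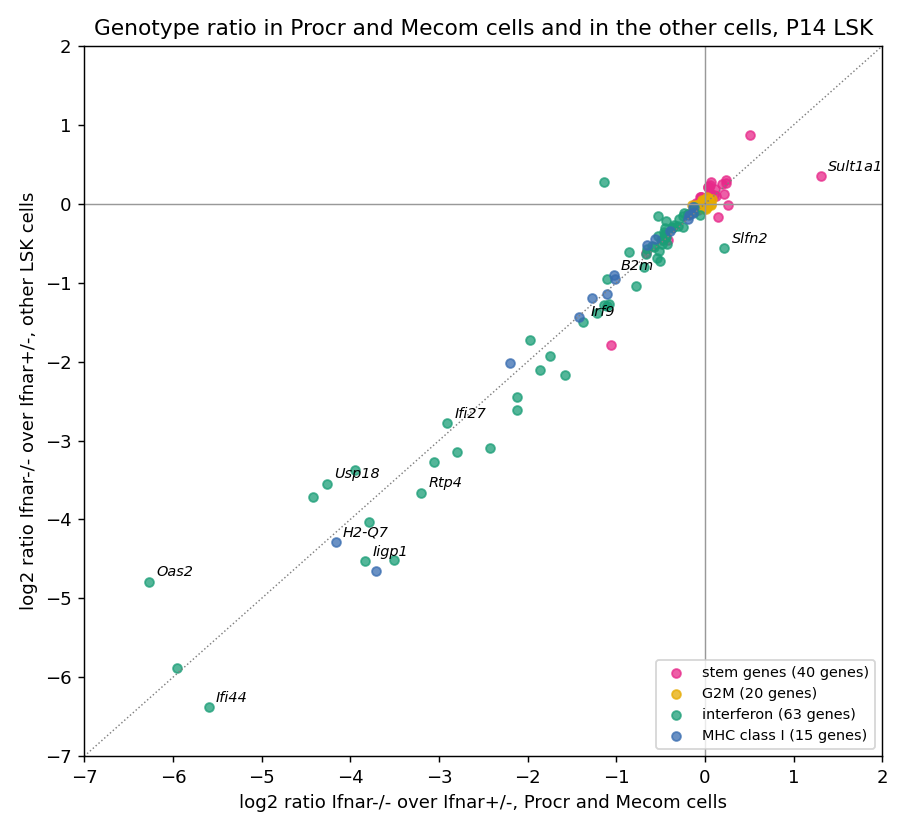
Log2 ratio of Ifnar-/- over Ifnar+/- for each gene of 4 lists at P14, in Procr+Mecom+ cells (horizontal) and in the other LSK cells (vertical), with equal ratios on the dotted line. Each genotype is 1 library. Interferon genes (medians -0.66 and -0.61) and MHC class I genes (-1.01 and -0.91) spread below 0 in both, and stem and G2M genes gather near 0.

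Counted per cell, the interferon difference was seen at each quartile. After thinning, a Procr+Mecom+ cell had a median of 18 interferon-list UMI (quartiles 14 to 23) in Ifnar+/- and 13 (10 to 16) in Ifnar-/-, and the other cells had 16 and 12. MHC class I UMI had medians of 24 and 13. In Ifnar+/- the upper tail was long, up to 166 UMI in a Procr+Mecom+ cell, against 48 in Ifnar-/-. At least 50 UMI, a limit set after the data had been seen, was reached by 26 of 1439 Ifnar+/- Procr+Mecom+ cells (1.81%, 1.18 to 2.64) and by 0 of 1609 in Ifnar-/-. A count of 0 allows a share of up to 0.186% at 3 counts, and the exact upper limit is 0.229%. Among the other cells it was reached by 23 of 3176 (0.724%, 0.460 to 1.08) and by 1 of 2778.

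In newborn mice, cells chosen by the same rule showed a larger genotype ratio. Procr+Mecom+ cells of P0 LSK libraries had 190 of 13259 genes (1.43%) at 0.5 times or less in Ifnar-/- and 102 (0.769%) at 2 times or more, and an interferon median of -1.67, with 64 of 64 genes lower. Over all genes 3778 of 13259 were lower, and the median was 0.10. The rule took unlike parts of the newborn libraries, 35.2% in Ifnar+/- and 68.4% in Ifnar-/-, at median depths of 28320 and 35303 UMI. Between them myeloid genes had a median of -1.11 and lymphoid genes of -0.73, against -0.14 and -0.33 at P14. The part of such differences in the gene counts was not tested. Cells with at least 50 interferon UMI made up 155 of 1801 (8.61%) in Ifnar+/- and 0 of 2373 in Ifnar-/-. The difference between the ages was not tested, since each group is 1 library.

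Few genes were higher in Ifnar-/- Procr+Mecom+ cells, and some rested on single cells. Elane had 328 UMI against 45, but 237 of them lay in 1 cell and 315 in 3, and without the top 3 cells of each library it had 13 and 13. Trbc1, a T cell receptor constant gene, had 83 UMI against 13, with 59 in 1 cell. Eps8l1, which encodes a regulator of actin, was spread more widely. It had 376 UMI against 124, read in 292 (18.1%) against 103 (7.16%) cells, with log2 ratios of 1.42 in Procr+Mecom+ cells, 1.22 in the other cells and 0.02 in Procr+Mecom+ cells of newborn mice. Within female cells of P14 its ratio was 1.07 and within male cells 2.03. After thinning it was read in 2.29% and 6.77% of Procr+Mecom+ cells of Ifnar+/- and Ifnar-/-, and in 0.249% and 1.37% of the Elane cells of the LK libraries. Free RNA carried Eps8l1 at 2.69 and 5.83 CPM in LSK, against 0.363 and 2.64 CPM in LK. The part of this free RNA was not tested. Sult1a1 had 65 against 23 UMI, Rep15 84 against 34 with 35 of the 84 in 3 cells, Runx1t1 62 against 26 and Xlr3a 52 against 22. Within female and male cells Rep15 had log2 ratios of 0.11 and 2.56 and Xlr3a of 0.19 and 2.42, so neither was 2-fold higher in female cells. Runx1t1 had 1.01 and 1.48 and Sult1a1 1.44 and 0.93. Wfdc10, Mecomos and Gm49838 were the next highest and stayed under 2-fold.

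Stem cell, cell cycle and growth genes had genotype ratios near 0 in Procr+Mecom+ cells. The median was 0.02 for the stem list, 0.001 for quiescence genes, 0.003 for G2M genes, 0.03 for G1/S genes and 0.01 for growth genes. Within the sexes, G2M genes had a median of -0.05 in female cells, with 17 of 20 lower. In male cells it was 0.13, with 1 of 20 lower. G1/S genes had 0.10 and 1 of 20 lower in female cells and -0.03 and 14 of 20 lower in male cells. The stem list had 0.03 and -0.04, with 18 and 25 of 39 genes lower. No median or count of lower genes over all genes was read within each sex, so these small ratios have no reference beside them. Hlf was at 606 and 564 CPM, Mllt3 at 111 and 109 CPM and Cdkn1c at 26.4 and 30.3 CPM. On the stem list Ifitm3, itself induced by interferon, was at 507 and 379 CPM, and Ly6a had a log2 ratio of -0.67. Lymphoid genes had a median of -0.33, against -0.25 in the other cells. Of them 16 of 18 were lower and 2 at least 2-fold lower, against 6303 and 52 of 12214 over all genes. Within female Procr+Mecom+ cells the lymphoid median was 0.01, with 7 of 15 genes lower, and within male ones -0.11, with 13 of 14 lower. The median of -0.33 over 18 genes was thus reached in neither sex. The split left out cells without an assigned sex and read fewer of the lymphoid genes. Ebf1 among them had 75 and 16 UMI, of which 41 and 8 lay in 1 cell. Gata1, the erythroid factor, had 93 and 51 UMI. G2M shares were 48.2% and 50.03%, and with at least 2 UMI of both genes 47.5% and 46.1%, in the opposite order. Within female cells they were 46.0% and 48.04% and within male cells 47.1% and 48.7%.

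Procr+Mecom+ cells of P14 differed from those of newborn LSK in many genes. In both genotypes, 182 of 12468 genes (1.46%) were at least 2-fold higher at P14 and 256 (2.05%) at least 2-fold lower. These 438 genes became 62 with 5 CPM added and 237 with the rule applied after thinning. The labels do not name the organ, so age and organ cannot be told apart. Dntt had 1258 and 1046 UMI at P14 against 5 and 5 at P0. At P14 it was read in 264 (18.3%) and 251 (15.6%) of the cells. After thinning it was read in 9.45% (7.99 to 11.1) and 7.89% (6.62 to 9.32) of Procr+Mecom+ cells, in 26.0% and 24.4% of the other LSK cells and in 0.746% and 0.915% of the Elane cells of the LK libraries. Free RNA of the LSK libraries was richer in Dntt, at 239 and 104 CPM against 44.6 and 45.8 CPM in LK. LSK cells with Elane gave 0 of 13 in Ifnar+/-, which allows up to 23.1% at 3 counts, and 8.33% of 12 (0.211 to 38.5) in Ifnar-/-. The part of free RNA in the Dntt share was not tested further. Fosb, an immediate early factor, had log2 ratios of 3.83 and 2.92, while the list of immediate early genes had a median of -0.07 and -0.53. On that list 10 of 17 and 15 of 19 genes were lower, against 5216 of 12524 and 7013 of 13249 over all genes. Galnt6, a glycosylating enzyme, had log2 ratios of 2.99 and 2.51. Vcam1, Mcpt8, Il18r1, I730030J21Rik and Ceacam16 were the other highest genes.

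Genes of the fetal program were lower at P14, in 9 of 9 and 10 of 10 genes, with a median of -1.38 and -1.496, where 5216 of 12524 and 7013 of 13249 of all genes were lower. Igf2bp1, an RNA-binding protein of fetal cells, had 4 and 0 UMI at P14 against 744 and 1599 at P0. H19 had log2 ratios of -4.91 and -5.51 and Lin28b, the regulator of fetal blood formation, -1.37 and -1.41, while Hmga2, which acts downstream of it, was lower by less at -0.55 and -0.71. Id3, an inhibitor of lineage factors, had 13 and 15 UMI at P14 against 1073 and 2161. Hepatocyte genes moved with age: Alb had 0 and 0 UMI at P14 against 172 and 206 at P0, at least 39.2-fold and 33.9-fold lower, and Serpina1e, Ahsg and Ttr were at 0 too. Of the list, 7 of 9 and 6 of 8 genes with enough UMI were lower, while Trf and Afp were higher, with log2 ratios of 0.41 and 0.34 and of 0.28 and 0.33. Their part in the other differences was not tested. The mast cell genes Tpsb2 and Cma1 were also among the lowest, with 2 and 3 and with 3 and 5 UMI at P14. The list of mast cell, basophil and eosinophil genes, which holds neither, lay on the other side: 2 of 2 and 3 of 3 genes with enough UMI were higher at P14, with a median of 1.57 and 1.45. Among them Mcpt8 had 68 and 63 UMI against 13 and 7, but 25 and 47 of its UMI at P14 lay in 3 cells. Slc2a1, which takes up glucose, had log2 ratios of -1.33 and -1.54, and glycolysis genes a median of -0.51 and -0.44. The thinned share with Cdkn1c was 39.2% and 49.8% at P0 against 18.1% and 21.4% at P14, and the G2M share was 59.3% and 57.4% against 48.2% and 50.03%. Interferon genes went in opposite directions by genotype, with a median of -0.73 in Ifnar+/- and 0.33 in Ifnar-/-, and that difference was not tested.

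Markers of other cell types were read beside these results, and their part in them was not tested. The 14 endothelial genes summed to 421 and 452 CPM against 399 and 418 in the other cells, led by Egfl7 at 303 and 337 CPM, which blood progenitors also express, with Lyve1 at 0 UMI and Cdh5 at 0.127 and 0.0452 CPM. Of those with enough UMI, 8 of 10 and 8 of 11 were higher in Procr+Mecom+ cells and 4 in each library at least 2-fold, with a median of 0.66 and 0.29. Over all genes 8927 of 12797 and 8855 of 12673 were higher, and 3.19% and 2.76% at least 2-fold. Stab2, with 4 UMI against 21, was at least 2-fold lower in Ifnar-/-. Among them, Cldn5, a tight junction gene, was at 2.62 and 1.81 CPM against 0.699 and 0.459, and Tie1, a receptor kinase, at 19.7 and 19.2 CPM against 8.35 and 8.41. Of 10 hepatocyte genes, 5 were at 0 UMI in each library, and Trf led the sum of 51.0 and 47.5 CPM. Stromal genes summed to 9.25 and 7.87 CPM with Dcn at 0, and mature lymphocyte genes to 103 and 101 CPM against 144 and 146, with Cd3e, Cd3g and Cd8a at 0 and Cd79b, a part of the B cell receptor, leading at 46.1 and 43.3 CPM against 40.04 and 38.2. Mast cell and basophil genes summed to 6.01 and 4.997 CPM against 23.8 and 12.5.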

How the data were processed

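The data were counts deposited by the authors: raw UMI per barcode for 32285 genes and 10 antibody tags, without normalization or cell filter, from 10x 3' libraries per the labels' protocols. Cell Ranger 4 wrote the matrices per the file headers, while the submitters' processing notes name Cell Ranger 6.0.1 and mm10. Strand handling and filters are not given in the sources used here.

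Cells were barcodes with at least 7500 gene UMI and at most 10% mitochondrial UMI, and no doublets were removed. Counts were summed over the Procr+Mecom+ cells or the other cells of a library, scaled to CPM, and set against each other as log2 ratios after adding 0.5 counts. At least 50 UMI on 1 side were required for counts of genes, and 20 UMI over both sides for lists. For shares, each cell was thinned to 7500 UMI. No background share was read for Cdkn1c, Mpo and Mki67. The Procr+Mecom+ cells numbered 1439 and 1609 with 39248592 and 44222751 UMI, which keeps counting error small for abundant genes and large below about 1 CPM. Intervals are exact (Clopper-Pearson for shares, Poisson for CPM, conditional for ratios) at 95%, and PCR or biological spread is not in them. Where a sum was at 0 UMI, the at-least fold was taken from a floor of 3 counts, while its log2 ratio used the 0.5 counts added. The scripts were tested on simulated counts.

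Each group was 1 library, so no tests were made and no p-values are given. A model with age, fraction and genotype as additive terms over the 8 libraries was not fitted. The cells, the gene lists and the rule for named genes were chosen with earlier results of these data known. Besides list genes, the rule named the 12 highest and 8 lowest genes against the other cells, the 10 lowest and 10 highest by genotype, and the 8 highest and 8 lowest by age, by ratio and, where there were 2 ratios, by the smaller. Lists, and genes named by genotype or on the interferon list, whose ratios went in opposite directions by 0.1 or more (log2) in 2 groups are given in the closing section. Gene positions are from a RefSeq table of GRCm38.p6, matched by symbol. Some genes that the lists hold are not reported here.

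Alternatives covered the mitochondrial limit, minimum depth, the UMI the rule requires, the rule after thinning, doublets (Scrublet scores in scanpy 1.11.5, at 0.8% per 1000 cells), scaling (edgeR 4.0.16 for TMM, or factors by median of ratios), 5 CPM added, weights per cell and per depth, free RNA, gene filters, the fold, the G2M threshold and sex. Computation used python 3.11.15, numpy 2.4.6 and scipy 1.17.1.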

Additional observations from a re-analysis of the deposited data

Results flagged for a closer look

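The interferon list had a median log2 ratio between P14 and P0 of -0.73 in Ifnar+/- and 0.33 in Ifnar-/- Procr+Mecom+ cells, that is, opposite directions in the genotypes. Myeloid genes (-0.26 and 0.59) and mature lymphocyte genes (-0.39 and 0.34) did the same with age. Against the other cells, MHC class II genes had -0.29 in Ifnar+/- and 0.15 in Ifnar-/-, and stromal genes, with 2 and 1 genes measured, 0.40 and -0.97. The MHC class II values were -0.45 and 0.007 under TMM scaling and -0.43 and 0.014 by median of ratios, so the Ifnar-/- value then lay near 0. Between genotypes at P14, a few genes went in opposite directions in Procr+Mecom+ cells and in the other LSK cells. Elane had log2 ratios of 2.68 and -0.40, Rep15 of 1.12 and -0.34, and both have many of their UMI in 3 cells of the Ifnar-/- library. Slfn2 had 0.22 and -0.56, and Phf11d, at under 0.5 CPM, -1.13 and 0.27. The genotype ratio of some of the highest genes at P14 went the other way in Procr+Mecom+ cells of newborn mice: Trbc1 had 2.46 at P14 and -1.94 at P0, Wfdc10 0.98 and -1.34, Gm49838 0.93 and -0.44, Sult1a1 1.31 and -0.15 and Xlr3a 1.05 and -0.14. Slfn2 had 0.22 at P14 and -0.92 at P0. Within female and male Procr+Mecom+ cells of P14, Elane had 0.41 and -0.32 and Trbc1 0.96 and -0.78, on at most 11 UMI a sum. Each group is 1 library, so none of these differences was tested.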

How the results depend on the processing

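No paired analysis between groups was made, since each group is 1 library and the labels carry no replicate numbers. Procr+Mecom+ and other cells were compared within each library. The medians of the stem list and of the interferon list between genotypes, and the CD201 ratio, kept their direction under each alternative run for them. Some orders changed. In Ifnar+/- the share of LSK cells was 35.2% at P0 and 31.2% at P14, but 10.5% and 11.7% under the rule after thinning. With at least 2 UMI of both genes, the G2M share was 47.5% in Ifnar+/- and 46.1% in Ifnar-/-, the opposite order to 48.2% and 50.03%. The interferon ratio between genotypes was then weaker in Procr+Mecom+ than in other cells (-0.53 and -0.64, from -0.66 and -0.61), and likewise under the rule after thinning (-0.61 and -0.64), with 5 CPM added (-0.44 and -0.45) and within female (-0.56 and -0.58) and male cells (-0.62 and -0.64). Small list medians changed sign under TMM scaling, among them glycolysis in Ifnar+/- (0.04 to -0.11) and megakaryocyte genes in Ifnar-/- (0.11 to -0.04). The share of LSK cells depended on the rule: requiring at least 2 UMI of both genes gave 13.6% in Ifnar+/- and 15.7% in Ifnar-/-, and the rule after thinning gave 11.7% and 13.4%. The share of Procr+Mecom+ cells with G2M RNA was 31.8% and 38.6% under the rule after thinning, 45.3% and 47.4% with doublets removed, 68.7% and 72.1% without thinning, and 78.1% and 80.2% at 1 G2M UMI or more.

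Counts of genes 2-fold apart moved with the filter, and counts at the low end rest on few UMI. Against the other cells there were 351 genes, and the rule after thinning gave 605, 5 CPM added 24, a minimum of 20 UMI 537, a minimum of 200 UMI 154 and 1.5-fold 1005. Between genotypes there were 59 genes, and the same settings apart from thinning gave 18 with 5 CPM added, 147 at 20 UMI, 31 at 200 UMI and 211 at 1.5-fold. Within female cells there were 51 and within male cells 56, a split chosen after seeing the data. Between ages there were 438 genes, against 237 under the rule after thinning, 62 with 5 CPM added, 213 at 200 UMI and 1126 at 1.5-fold. With 5 CPM added the stem list was at 0.53 and 0.48 and the interferon list between genotypes at -0.44. The cause of these moves beyond the filter itself was not tested.

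The other 96 values, among them the interferon list in female and in male cells, the CD201 ratio and the stem list under both scalings, moved by less than 1.5-fold or the limit set for them. With 1 library per group, spread between mice is unknown.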
